A study of Rattus norvegicus with 9 samples.

Results

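Bnip3 and 9 other genes of mitophagy, the selective removal of mitochondria by autophagy, were followed in poly(A) RNA sequencing of rat femur. The members were taken by symbol from the deposited gene table, and each of the 10 matched 1 of its 32623 rows. All 10 had a mean of at least 1 FPKM (fragments per kilobase of gene, scaled to library depth) and were among the 13886 genes tested. Bnip3 was chosen by its measured level, which was higher after ovariectomy, so its difference between ovariectomized and control rats is given as a description without a test. The other 9 were chosen by their role, with earlier results of these data known.

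The 9 libraries came from 3 groups of 3: rats labelled as Desertliving Cistanche herb treatment (treated), Ovariectomized rats (ovariectomized) and normal SD (Sprague-Dawley) rats (control). The title sets the herb against postmenopausal osteoporosis, for which removal of the ovaries serves as the model. It names ovariectomized rats as the recipients of the herb, whereas the treated samples' own labels do not state surgery. Every sample is labelled femur and genotype WT, without saying whether marrow or attached muscle was removed. Age, herb dose, treatment length and sham surgery were not found in the labels. Separate animals are not stated either, and the p-values then describe only how far these samples spread, which may be technical. Libraries held 54992823 to 66531156 counts. The 9 osteoblast markers with a row were above 0 in every library, with a summed level of 1038 to 2357 FPKM in treated, 1097 to 2791 FPKM in ovariectomized and 1770 to 3187 FPKM in control rats, and skeletal muscle, fat and red cell markers were present as well.

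In mitophagy a mitochondrion is marked on its surface and enclosed by an autophagosome, a double membrane coated with small proteins of the LC3 and GABARAP family. Receptors such as BNIP3, BNIP3L (also called NIX) and FUNDC1 sit in the outer mitochondrial membrane and bind these proteins directly. The kinase PINK1 instead gathers on damaged mitochondria and leads to their coating with ubiquitin, which adaptors such as SQSTM1 (p62) read. Transcription of Bnip3 is known to be raised by the hypoxia factor HIF-1 and, in muscle, by FOXO3, and Bnip3l is known from mice for clearing mitochondria out of maturing red cells.

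The promoter windows below are shown because HIF-1 binds the core letters ACGTG or GCGTG, and CACGTG holds ACGTG on both strands. They are the 250 bases before the RefSeq gene start in build GRCr8, 5′ to 3′ on the gene's strand, for the 3 members whose window holds CACGTG. Capitals mark ACGTG or GCGTG on either strand. The windows are chr1:203154963-203155212 (minus strand) for Bnip3, chr5:155825951-155826200 (minus strand) for Pink1 and chr6:98359648-98359897 (plus strand) for Hif1a.
Bnip3: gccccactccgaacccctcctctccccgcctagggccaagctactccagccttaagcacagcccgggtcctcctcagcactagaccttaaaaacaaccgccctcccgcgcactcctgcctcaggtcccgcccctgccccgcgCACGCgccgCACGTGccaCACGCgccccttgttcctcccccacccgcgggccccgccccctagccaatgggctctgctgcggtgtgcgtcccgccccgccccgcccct
Pink1: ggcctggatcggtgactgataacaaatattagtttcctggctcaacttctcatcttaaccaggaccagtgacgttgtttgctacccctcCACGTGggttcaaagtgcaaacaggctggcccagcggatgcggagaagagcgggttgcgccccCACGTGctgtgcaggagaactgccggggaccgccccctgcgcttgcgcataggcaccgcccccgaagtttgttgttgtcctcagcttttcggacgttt
Hif1a: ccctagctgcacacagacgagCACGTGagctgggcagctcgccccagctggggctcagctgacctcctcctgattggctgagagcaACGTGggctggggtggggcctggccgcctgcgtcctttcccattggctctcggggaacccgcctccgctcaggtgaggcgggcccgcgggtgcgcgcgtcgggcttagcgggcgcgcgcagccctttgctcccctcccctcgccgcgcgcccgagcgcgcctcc

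In the Bnip3 window the CACGTG begins 99 bases before the gene start, with a GCGTG match on the opposite strand on each side of it, at 108 and 90 bases. Pink1 holds CACGTG at 161 and 98 bases before its start, and Hif1a holds it at 229 bases. RefSeq windows were matched for 6 of the 10 members. Of the other matched members, Map1lc3b holds a single GCGTG match and Gabarapl1 and Sqstm1 hold none of these letters. CACGTG occurs in 5.59% of all 33469 rat windows of this length, and ACGTG or GCGTG in 36.7%. The letters TGTTTAC, a FOXO core searched on both strands, occur in 3.21% of all windows and in none of the 6. Entries for Bnip3l, Fundc1, Map1lc3a and Foxo3 were not matched. These matches describe letters and do not show binding.

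Levels per length differed widely within the set. Bnip3l was the most abundant member in all 9 libraries, with a mean of 135 FPKM, and Sqstm1 was next at 93.7 FPKM. Map1lc3b (49.7 FPKM), Pink1 (46.3 FPKM), Foxo3 (34.2 FPKM), Map1lc3a (32.3 FPKM) and Gabarapl1 (26.6 FPKM) followed. Bnip3 (18.7 FPKM), Hif1a (17.1 FPKM) and Fundc1 (9.04 FPKM) were lowest. Over the 9 libraries, the ranges of Bnip3l and Sqstm1 did not overlap each other or the next gene, and the range of Fundc1 lay below that of Hif1a. Each pair of neighbours in between, Map1lc3b down to Hif1a, had overlapping ranges.

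The spread of Bnip3 over the 9 libraries carries the difference by which it was chosen and is a description. Its coefficient of variation was 37.6%, while the other 9 genes lay between 7.37% for Hif1a and 16.0% for Pink1. The highest Bnip3 library was 3.32 times the lowest, against 1.27 to 1.63 times for the other members.

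Bnip3 (ENSRNOG00000017243; chromosome 1, 211248098 to 211265282, minus strand in the deposited coordinates, whose genome build the sources used here do not name) was low in control rats and higher in both other groups. Its level was 22.2, 15.9 and 26.7 FPKM in treated rats, 23.4, 21.5 and 27.0 FPKM in ovariectomized rats and 11.3, 12.0 and 8.15 FPKM in control rats. Control replicate 3 was the lowest library of all and treated replicate 2 the lowest outside the controls. All 6 treated and ovariectomized libraries lay above all 3 controls, which held for 3.93% of genes tested. For Bnip3 this arrangement carries the difference by which it was chosen and is a description. No other member had this arrangement, and 0 of the 10 had it in the opposite direction, where the share of genes tested was 0.446%. In bulk tissue, fewer cells of a type and less RNA per cell cannot be told apart.

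**Figure D1:**
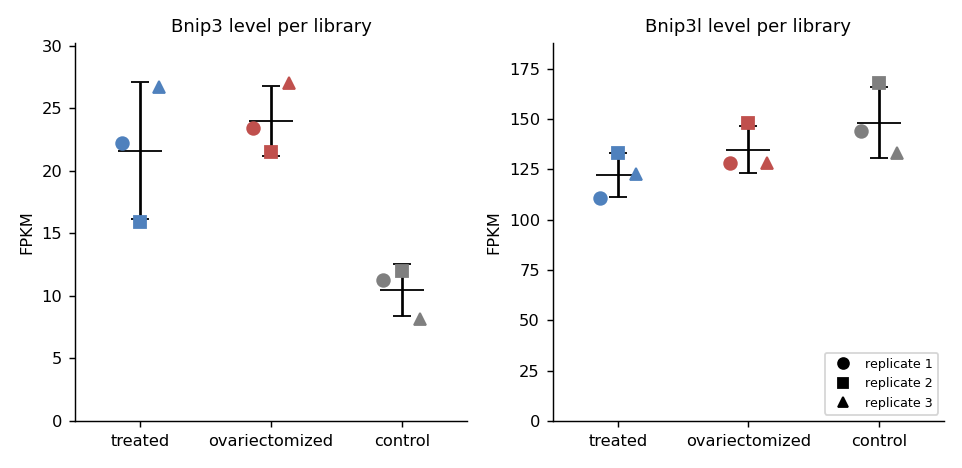
Bnip3 (left) and Bnip3l (right) level in FPKM for each library of the treated, ovariectomized and control groups, with the group mean and SD (n = 3); marker shapes give the replicate number. Bnip3 lies at 15.9 to 27.0 FPKM in both non-control groups and at 8.15 to 12.0 FPKM in controls, while the Bnip3l groups overlap on this scale.

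After ovariectomy, Bnip3 averaged 23.997 ± 2.78 FPKM in ovariectomized rats and 10.5 ± 2.05 FPKM in control rats (SD, n = 3 each). The edgeR log2 fold change was 1.14 ± 0.22 (SE). Estimates above 1 on this scale were found in 2.26% of genes tested. This is the contrast by which Bnip3 was picked, and nothing is read from it.

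The question of the herb is put by setting treated beside ovariectomized rats, taking from the title that both groups had surgery. Bnip3 averaged 21.6 ± 5.45 FPKM in treated rats and 23.997 ± 2.78 FPKM in ovariectomized rats (SD, n = 3 each), and the groups overlapped. The log2 fold change was -0.19 ± 0.22 (SE), with a 95% interval of -0.69 to 0.31 (edgeR quasi-likelihood test, Benjamini-Hochberg adjusted p = 0.963). The difference was within the spread between libraries. Without treated replicate 2 the estimate was -0.010.

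Against control rats, treated rats had a Bnip3 log2 fold change of 0.95 ± 0.22 (SE), with no overlap between the groups, where 14.3% of genes tested lay higher without overlap. The edgeR adjusted p was 0.469. DESeq2 passed it with an adjusted p of 0.0104. This comparison shares its control libraries with the contrast that picked Bnip3 and is not independent of it.

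Bnip3l, the close relative of Bnip3, had estimates below 0 in all 3 comparisons. Bnip3l had 111, 133 and 122 FPKM in treated rats, 128, 148 and 128 FPKM in ovariectomized rats and 144, 168 and 133 FPKM in control rats. The highest library was control replicate 2 and the lowest treated replicate 1, and the groups overlapped in every comparison. The log2 fold change was -0.19 ± 0.12 (SE) for ovariectomized against control rats, -0.18 ± 0.12 for treated against ovariectomized rats and -0.37 ± 0.12 for treated against control rats. The edgeR adjusted p values were 0.9998, 0.945 and 0.489. The Bnip3 level as a percentage of the Bnip3l level was 17.9% ± 5.28 in treated rats, 18.0% ± 3.28 in ovariectomized rats and 7.05% ± 0.872 in control rats (SD, n = 3 each). This percentage carries the choice of Bnip3 and is a description.

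Fundc1, the receptor that acts in hypoxia-induced mitophagy, had 7.72, 11.0 and 9.20 FPKM in treated rats, 8.56, 9.58 and 9.88 FPKM in ovariectomized rats and 7.76, 8.98 and 8.62 FPKM in control rats. Treated replicates 1 and 2 were the lowest and highest libraries, so the treated group spanned both others. Its log2 fold changes were 0.098 ± 0.13 (SE) for ovariectomized against control rats, -0.046 ± 0.13 for treated against ovariectomized rats and 0.052 ± 0.13 for treated against control rats, within the spread between libraries in each case.

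Sqstm1, the adaptor that links ubiquitin to LC3, had 88.8, 95.5 and 97.6 FPKM in treated rats, 91.0, 105 and 104 FPKM in ovariectomized rats and 89.8, 92.9 and 79.2 FPKM in control rats. All groups overlapped. Its log2 fold change was 0.15 ± 0.10 (SE) for ovariectomized against control rats, -0.13 ± 0.10 for treated against ovariectomized rats and 0.015 ± 0.10 for treated against control rats.

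Pink1, the kinase of the ubiquitin route, had 44.0, 47.1 and 50.1 FPKM in treated rats, 41.0, 47.4 and 63.2 FPKM in ovariectomized rats and 39.5, 45.2 and 38.7 FPKM in control rats. Ovariectomized replicate 3 stood above all other libraries. The log2 fold change of 0.25 ± 0.15 (SE) for ovariectomized against control rats was the second highest among the 10 members after Bnip3 and did not pass (edgeR adjusted p = 0.9998). That library also had the highest summed level of skeletal muscle markers. With the muscle marker score as a covariate the Pink1 estimate was -0.048 ± 0.19. Every ovariectomized library had a higher muscle score than every control, so score and group cannot be told apart there.

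None of the 3 genes for LC3 and GABARAP proteins, which coat the autophagosome, passed a test. Map1lc3a (LC3A) had 33.3, 36.5 and 33.5 FPKM in treated rats, 33.5, 31.2 and 31.5 FPKM in ovariectomized rats and 33.5, 31.1 and 26.4 FPKM in control rats. Map1lc3b (LC3B) had 44.9, 42.4 and 54.8 FPKM in treated rats, 52.6, 58.5 and 48.5 FPKM in ovariectomized rats and 47.9, 54.4 and 42.9 FPKM in control rats. Gabarapl1 had 26.5, 24.8 and 33.1 FPKM in treated rats, 27.4, 24.6 and 27.8 FPKM in ovariectomized rats and 24.5, 26.4 and 24.2 FPKM in control rats. The groups of all 3 genes overlapped in every comparison. Their log2 fold changes for ovariectomized against control rats were 0.031 ± 0.11, 0.087 ± 0.14 and 0.042 ± 0.11 (SE). Between treated and ovariectomized rats they were 0.061 ± 0.11, -0.21 ± 0.14 and 0.037 ± 0.11, and between treated and control rats 0.092 ± 0.11, -0.12 ± 0.14 and 0.079 ± 0.11.

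**Figure D2:**
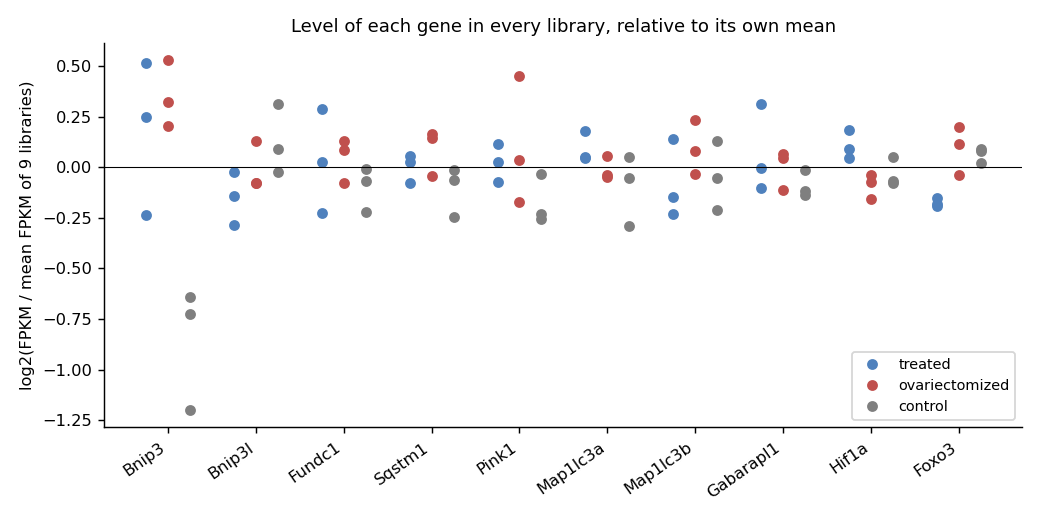
Level of each of the 10 genes in every library as log2 of its FPKM over the gene's mean FPKM of the 9 libraries, with 1 point per library in the treated, ovariectomized and control groups. The 3 control points of Bnip3 (8.15 to 12.0 FPKM) lie below the rest of its points, the nearest being treated replicate 2 (15.9 FPKM), and the treated points of Foxo3 lie together below its other libraries.

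Upstream of the receptors, Hif1a encodes the oxygen-regulated subunit of HIF-1, which is governed mainly by protein stability. Hif1a had 17.6, 18.2 and 19.4 FPKM in treated rats, 16.2, 16.6 and 15.3 FPKM in ovariectomized rats and 16.2, 16.3 and 17.7 FPKM in control rats. The treated libraries lay above all ovariectomized ones, as did 10.02% of genes tested, and overlapped the controls. The log2 fold change was 0.15 ± 0.061 (SE) for treated against ovariectomized rats, with an unadjusted p of 0.0340 and an edgeR adjusted p of 0.929. It was -0.10 ± 0.061 for ovariectomized against control rats and 0.053 ± 0.061 between treated and control rats.

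Foxo3, a transcription factor that switches on genes of autophagy and atrophy, was the member whose treated libraries lay apart from both other groups. Foxo3 had 30.8, 29.9 and 30.1 FPKM in treated rats, 33.3, 37.0 and 39.2 FPKM in ovariectomized rats and 34.7, 36.4 and 36.1 FPKM in control rats. The 3 treated libraries were almost level and lay below the other 6. Genes lower without overlap made up 3.93% of those tested for treated against ovariectomized rats and 2.66% for treated against control rats. The log2 fold change was -0.31 ± 0.071 (SE) for treated against ovariectomized rats (unadjusted p = 0.00215, edgeR adjusted p = 0.929, DESeq2 adjusted p = 0.0716). For treated against control rats it was -0.33 ± 0.071 (unadjusted p = 0.00157, edgeR adjusted p = 0.436), where DESeq2 passed it with an adjusted p of 0.0171. Ovariectomized against control rats gave -0.016 ± 0.071.

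**Figure D3:**
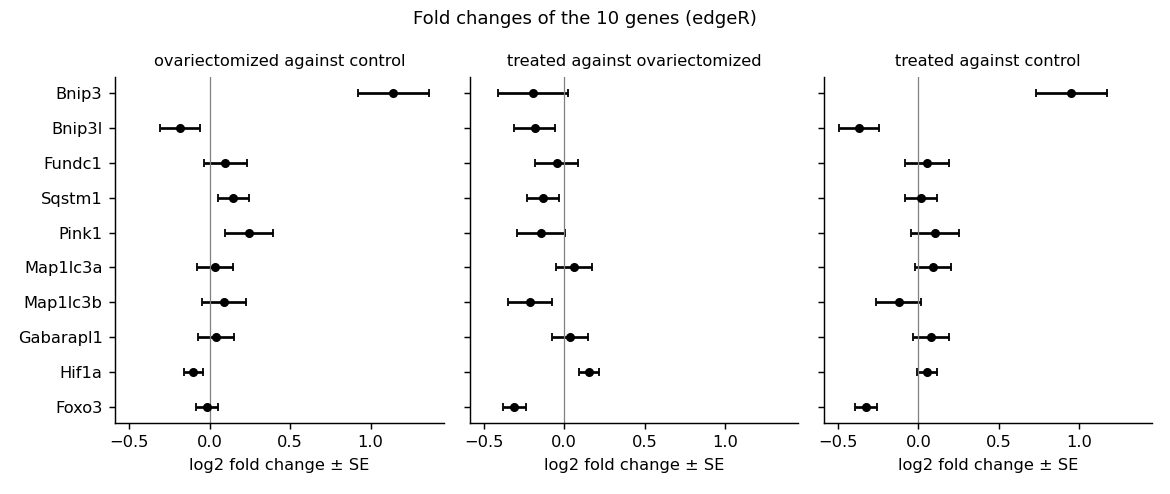
edgeR log2 fold change with SE for the 10 genes, with 1 panel for each of the 3 comparisons. Bnip3 stands at 1.14 and 0.95 in the comparisons with control rats and at -0.19 between treated and ovariectomized rats, and the other 9 genes lie between -0.37 and 0.25.

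Over the set, Bnip3 is left out of all counts of tests for ovariectomized against control rats. There 0 of the other 9 members passed an adjusted p under 0.05 in edgeR, and in the other comparisons 0 of 10 passed. The counts by limma on log2(FPKM + 1) were also 0. The background was the same, with 0% of genes called by edgeR in each comparison. At an unadjusted p under 0.05 edgeR counted 701 genes for ovariectomized against control rats, 722 for treated against ovariectomized rats and 1223 when treated rats were set against controls. DESeq2 called 59, 38 and 153 genes in the same order. These are out of 13886 genes tested. Of the members, DESeq2 called 0 of 9 for ovariectomized against control rats and 0 of 10 between treated and ovariectomized rats. Between treated and control rats it called 1 of the 9 besides Bnip3 (Foxo3). Bnip3 was also called there, but it shares these controls with the contrast that picked it and is left out of the count. After ovariectomy, 0 of the 9 members besides Bnip3 had an unadjusted p under 0.05, against 3.33% of genes tested higher and 1.72% lower. Their estimates were above 0 in 6 and below in 3, with a median of 0.042 against a median of -0.0037 over all genes tested. In FPKM, no member besides Bnip3 was without overlap there, where 7.60% of genes tested were higher and 2.05% lower without overlap. Fold changes rest on scaled counts, where overlap can differ. In CPM, Hif1a was at 68.0, 69.8 and 63.0 in ovariectomized rats, below 70.3, 72.2 and 72.9 in control rats. The share of all genes tested without overlap in CPM was not counted. Between treated and ovariectomized rats, Hif1a was higher and Foxo3 lower at an unadjusted p under 0.05, where 2.12% of genes tested were higher and 3.08% lower. There 7 of 10 members were below 0 with a median of -0.14, beside -0.0042 over all genes tested. For treated against control rats, Bnip3l and Foxo3 were lower at an unadjusted p under 0.05, with 4.75% of genes tested lower and 4.05% higher. Bnip3 was higher at this threshold, which is not independent of the contrast that picked it. Of the 9 members besides Bnip3, 6 were above 0 there, with a median of 0.052, beside -6.0e-06 over all genes tested. Treated and ovariectomized rats are each compared with the same controls.

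In the wider mitophagy machinery no gene passed edgeR's test. Of 12 receptors and adaptors tested (Bnip3, Bnip3l, Fundc1 and Sqstm1 included), 7 had estimates above 0 and 5 below for ovariectomized against control rats, with a median of 0.035. Nipsnap2, a mitochondrial matrix protein that can mark damaged mitochondria, had 22.6, 19.8 and 25.045 FPKM in treated rats, 17.7, 21.4 and 23.9 FPKM in ovariectomized rats and 15.9, 17.3 and 17.6 FPKM in control rats. Its log2 fold change was 0.26 ± 0.12 (SE) for ovariectomized against control rats (edgeR adjusted p = 0.974) and 0.32 ± 0.12 between treated and control rats (edgeR adjusted p = 0.516). Its libraries lay above all controls in both comparisons, as did 7.60% of genes tested for ovariectomized and 14.3% for treated rats. Of the 12, 3 were higher without overlap in each (Bnip3, Nipsnap2 and Fkbp8). The counts and the median for ovariectomized against control rats include Bnip3, which was picked by that contrast. Nothing is read from its part in them.

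Of 16 genes of the PINK1 and Parkin pathway tested, 10 had estimates above 0 for ovariectomized against control rats, with a median of 0.032. Mfn2, a mitochondrial fusion protein that Parkin marks for removal, was at 0.23 ± 0.10 (SE) and the rhomboid protease gene Parl at 0.15 ± 0.11, and their groups overlapped. The 5 genes of the LC3 and GABARAP family spanned -0.051 for Gabarapl2 to 0.087 for Map1lc3b, with Gabarap at -0.036 ± 0.064. In these 3 lists edgeR called 0 genes in each comparison, and 0 genes besides Bnip3 had an unadjusted p under 0.05 for ovariectomized against control rats.

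Bnip3 is itself a HIF-1 target, and other known targets lay on both sides of 0. Of 24 tested, 14 had estimates above 0 and 10 below for ovariectomized against control rats, with a median of 0.028. Aldoa, a glycolytic enzyme, had 392, 291 and 354 FPKM in treated rats, 334, 382 and 454 FPKM in ovariectomized rats and 318, 268 and 282 FPKM in control rats, and its log2 fold change of 0.38 ± 0.15 (SE) for ovariectomized against control rats showed no overlap. P4ha1, a collagen prolyl hydroxylase subunit, was on the other side at -0.46 ± 0.16, with overlap. Hk1, the next by p, was at -0.11 ± 0.062. For ovariectomized against control rats, 3 of the 24 were higher without overlap, Aldoa included, and 1 lower, beside 7.60% and 2.05% of genes tested. Ldha, the lactate dehydrogenase gene, was at 9.6e-05 ± 0.10 and Slc2a1, the glucose transporter gene, at 0.13 ± 0.14. Both were named after their values were seen. For treated against control rats, 5 of the 24 were lower and 1 higher at an unadjusted p under 0.05, beside 4.75% and 4.05% of genes tested. edgeR called 0 of them in each comparison.

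FOXO target genes had a median of 0.10 for ovariectomized against control rats, with 12 of 18 above 0. Klf15, a glucocorticoid-responsive transcription factor, had 1.82, 1.81 and 2.34 FPKM in treated rats, 3.65, 2.71 and 2.42 FPKM in ovariectomized rats and 1.83, 1.36 and 1.88 FPKM in control rats. Ovariectomized rats thus lay above both other groups for this gene. Without overlap, 7.60% of genes tested were higher for ovariectomized against control rats and 3.93% lower for treated against ovariectomized rats. The Klf15 log2 fold change was 0.75 ± 0.21 (SE) for ovariectomized against control rats (edgeR adjusted p = 0.892). For treated against ovariectomized rats it was -0.60 ± 0.21 (edgeR adjusted p = 0.929). Pdk4, a kinase that limits pyruvate use, had 9.21, 5.19 and 13.8 FPKM in treated rats, 6.35, 6.42 and 27.1 FPKM in ovariectomized rats and 3.51, 4.67 and 4.35 FPKM in control rats. Its log2 fold change for ovariectomized against control rats was 1.61 ± 0.59, with ovariectomized replicate 3, the library highest in muscle markers, far above the rest. The atrophy ubiquitin ligase gene Fbxo32 was at 0.52 ± 0.22. Between treated and ovariectomized rats the list had 12 of 18 below 0 and a median of -0.085. Without overlap, 4 of the 18 were higher and 0 lower for ovariectomized against control rats, beside 7.60% and 2.05% of genes tested. At an unadjusted p under 0.05 edgeR had 3 higher and 0 lower there, beside 3.33% and 1.72%. Between treated and ovariectomized rats, 1 was higher and 3 lower without overlap, beside 10.02% and 3.93%. edgeR called 0 of the 18 in each comparison.

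Fat cell markers were higher in both groups in which Bnip3 was higher. The 16 adipocyte markers, none at 0 in any library, summed to 1180 to 1971 FPKM in treated rats, 1141 to 1652 FPKM in ovariectomized rats and 440 to 972 FPKM in control rats. All 15 tested had estimates above 0 in both comparisons with control rats, with medians of 1.10 for ovariectomized and 1.01 for treated rats, and edgeR called 0 of the 15. At an unadjusted p under 0.05 edgeR had 10 of the 15 higher in each, beside 3.33% and 4.05% of genes tested. In FPKM, 12 of the 15 were higher without overlap in each, beside 7.60% and 14.3%. Control replicate 3, the lowest for Bnip3, also had the lowest adipocyte score (mean log2 CPM of the markers, centred), at -1.71. Treated replicate 2 had the lowest outside the controls, at -0.15. The order differed elsewhere: ovariectomized replicate 3 had the highest Bnip3 level (27.0 FPKM) and the lowest score of its group (0.20), and control replicate 2 had a lower score than control replicate 1 (-0.31 against -0.28) with a higher Bnip3 level. With the adipocyte score as a covariate, the Bnip3 log2 fold change was 0.62 ± 0.21 (SE) for ovariectomized against control rats and 0.44 ± 0.21 between treated and control rats. Every control score (at most -0.28) lay below every other score (at least -0.15), so score and group cannot be told apart here. The part of fat cells in the Bnip3 result was not tested.

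**Figure D4:**
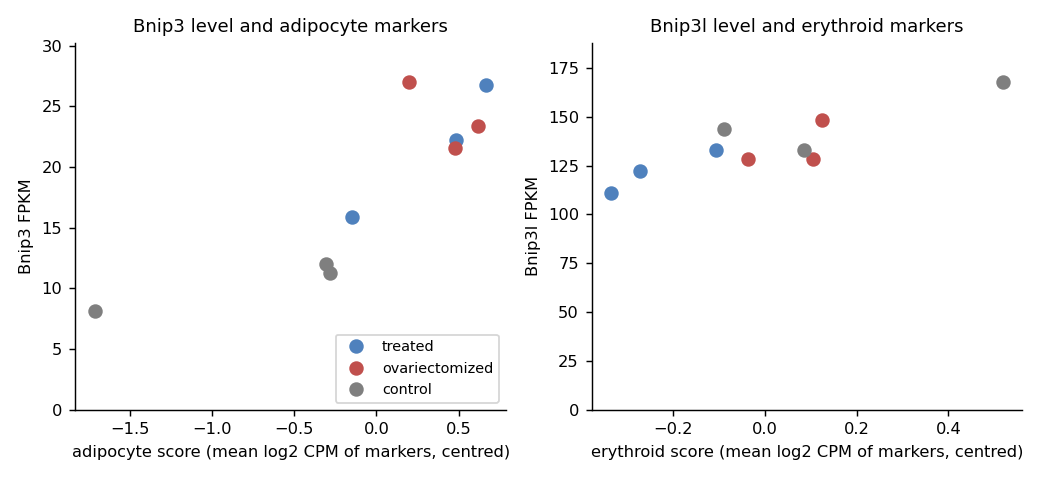
Left, Bnip3 FPKM against the adipocyte marker score of each library; right, Bnip3l FPKM against the erythroid marker score, for treated, ovariectomized and control libraries. Control replicate 3 has the lowest adipocyte score (-1.71) and the lowest Bnip3 level (8.15 FPKM), and control replicate 2 the highest erythroid score (0.52) and the highest Bnip3l level (168 FPKM).

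Skeletal muscle markers had estimates above 0 in both comparisons with control rats as well, in 15 of 15 tested, and edgeR called 0 of them. At an unadjusted p under 0.05 edgeR had 14 of the 15 higher for ovariectomized and 0 for treated rats, beside 3.33% and 4.05% of genes tested. The 15 with a row summed to 711 to 1474 FPKM in treated rats, 953 to 4660 FPKM in ovariectomized rats and 293 to 942 FPKM in control rats, with none at 0. With the muscle score as a covariate, Bnip3 stood at 1.03 ± 0.33 (SE) for ovariectomized against control rats and 0.89 ± 0.26 between treated and control rats. Every ovariectomized muscle score (at least -0.16) lay above every control score (at most -0.23). Cartilage markers were below 0 in 9 of 10 tested for ovariectomized against control rats and in 10 of 10 between treated and control rats. They summed to 71.0 to 220 FPKM in treated rats, 103 to 138 FPKM in ovariectomized rats and 134 to 397 FPKM in control rats, and at most 1 of the 13 was at 0 in a library. Osteoblast markers were below 0 in 9 of 9 in both comparisons with controls. The part of muscle, cartilage and osteoblast markers in the Bnip3 result was not tested.

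The estimates below 0 of Bnip3l and Foxo3 in treated rats stood beside red cell markers that were also below 0. The 15 erythroid markers with a row summed to 2705 to 3352 FPKM in treated rats, 3303 to 3805 FPKM in ovariectomized rats and 3108 to 4879 FPKM in control rats, with none at 0. All 15 had estimates below 0 in treated rats in both comparisons, with medians of -0.32 against ovariectomized and -0.42 against control rats. With the erythroid score as a covariate, the Bnip3l log2 fold change for treated against control rats was -0.13 ± 0.13 (SE) and that of Foxo3 was -0.25 ± 0.093. Between treated and ovariectomized rats they were -0.0093 ± 0.12 for Bnip3l and -0.25 ± 0.082 for Foxo3. Every treated erythroid score (at most -0.105) lay below every other score (at least -0.0881), so score and group cannot be told apart here. The part of red cells in these results was not tested. Neutrophil markers lay the other way, with 8 of 8 tested above 0 in treated rats against both ovariectomized (median 0.28) and control rats (median 0.26). The 9 listed summed to 29947 to 43735 FPKM in treated rats, 25898 to 31149.7 FPKM in ovariectomized rats and 21381 to 37461 FPKM in control rats, with at most 1 at 0 in a library. Their part in the Bnip3l and Foxo3 results was not tested.

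The genes whose level followed Bnip3 most closely over the 9 libraries were taken by Pearson correlation of log2(FPKM + 1). Among them were Cav2, a caveolin, with r = 0.987 (Spearman rho = 0.967), and Ca3, a carbonic anhydrase abundant in fat and muscle, with r = 0.969 (rho = 0.867). Kcnn3, a calcium-activated potassium channel, followed with r = 0.962 (rho = 0.867), and Retn, which encodes resistin, with r = 0.956 (rho = 0.833). The 9 points share 3 groups, and the genes were picked for the correlation out of 13886, so these values are descriptions. Retn is also 1 of the adipocyte markers. Cav2 had 9.28, 8.43 and 11.8 FPKM in treated rats, 11.0, 9.84 and 12.0 FPKM in ovariectomized rats and 6.64, 6.31 and 5.16 FPKM in control rats. Retn had 95.9, 62.5 and 88.8 FPKM in treated rats, 74.7, 98.9 and 104 FPKM in ovariectomized rats and 41.8, 38.2 and 18.5 FPKM in control rats. In both genes, as in Bnip3, control replicate 3 was lowest of all and treated replicate 2 lowest among the treated.

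The Bnip3 estimate kept its sign in each comparison under all 20 other settings tried. In both comparisons with control rats, all 6 other libraries lay above all 3 controls. Leaving out a library could therefore not turn the sign there. The kept sign carries the difference by which Bnip3 was chosen and is a description. For ovariectomized against control rats the estimates ran between 0.62, with the adipocyte score as a covariate, and 1.26, without control replicate 2.

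**Figure D5:**
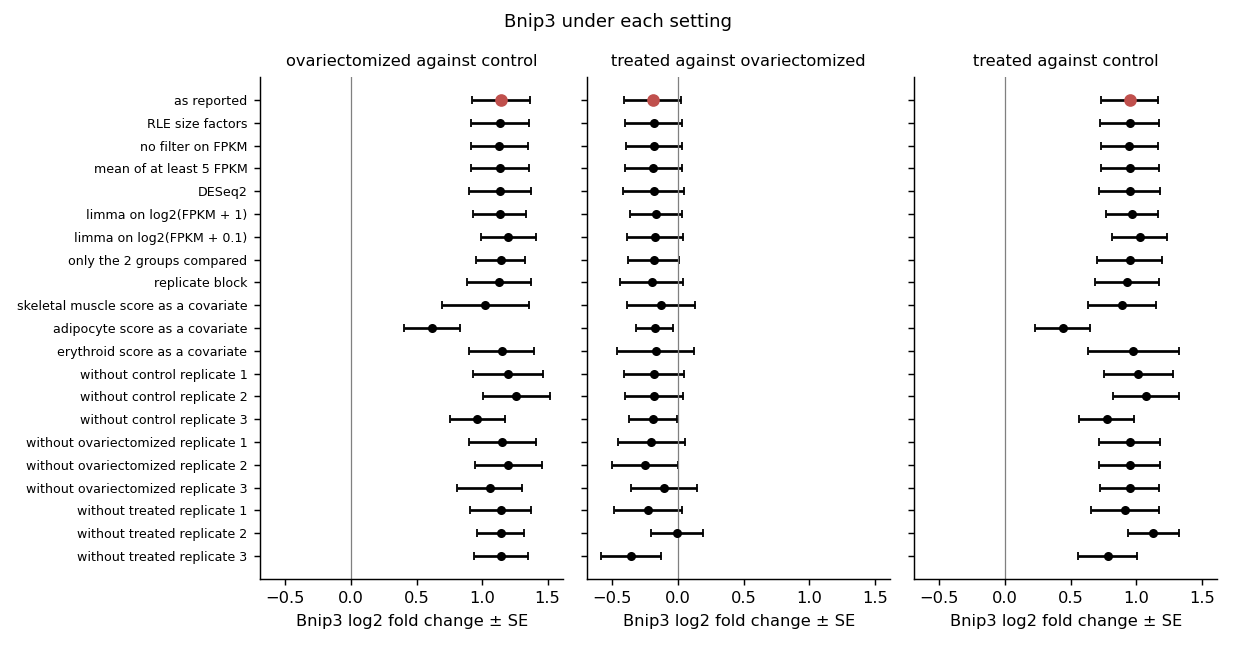
Bnip3 log2 fold change with SE in the 3 comparisons, as reported (top) and under each of 20 other settings. Estimates for both comparisons with control rats stay above 0, lowest with the adipocyte score as a covariate (0.62 and 0.44), and those for treated against ovariectomized rats lie between -0.36 and -0.010. The sign against control rats carries the difference by which Bnip3 was chosen.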

How the data were processed

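Whole-number counts per gene and FPKM values (scaled for length and depth) were deposited by the authors in 1 table for 9 libraries of rat femur. Per the submitters' processing notes fastp, HISAT2 and StringTie were used, without versions; the genome build and the counting step were not found in the labels or headers. Per the file headers each library has a count and an FPKM column, and FPKM is 0.0001 where the count is 0. No pair of libraries within a group agreed within sampling noise (lowest chi-square per degree of freedom 79.5).

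Genes whose mean FPKM reached 1 were tested with edgeR 4.0.16 (TMM factors, 1 quasi-likelihood fit over 3 groups; Benjamini-Hochberg over 13886 genes, threshold 0.05), and the step was tested on simulated data. edgeR's test gives no SE. The SE of each edgeR fold change is an approximation, its absolute value divided by the square root of the quasi-likelihood F statistic. The interval given for Bnip3 was built from this SE with a t quantile. The 10 members are always named; from each other list up to 3 genes with the smallest p for ovariectomized against control rats, and the 5 genes most like Bnip3, of which 1 is not reported here. Members and lists were chosen with earlier results of these data known. List symbols without a row were not analysed here. Alternatives were RLE scaling, no filter or 5 FPKM, DESeq2 1.42.0, limma 3.58.1 at pseudocounts 1 and 0.1, only the 2 groups compared, a replicate block, marker scores as covariates and each library left out. R 4.3.3, Python 3.11.15 and matplotlib 3.10.9 were used. Strand use in counting is not stated, so reads of overlapping genes cannot be told apart.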

Additional observations from a re-analysis of the deposited data

How the results depend on the processing

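The 30 fold changes of the 10 members under 20 alternatives gave 600 values, of which 564 kept their sign and, where a test was made, their side of the threshold. Bnip3 for ovariectomized against control rats was judged by size alone and without a test, because this contrast picked the gene. In edgeR 0 genes were called in each comparison. DESeq2 called 59 for ovariectomized against control, 38 for treated against ovariectomized and 153 for treated against control rats, and fits of only the 2 groups compared called 2, 1 and 1. Leaving out single libraries gave 0 to 4, 0 to 2 and 0 to 3 calls. DESeq2 passed Bnip3 (0.95, adjusted p = 0.0104) and Foxo3 (-0.33, adjusted p = 0.0171) for treated against control rats, where the other settings passed neither; the cause was not tested. The Bnip3 estimate for ovariectomized against control rats moved to 0.62 with the adipocyte score.

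Signs turned for estimates that had not passed, as follows. For ovariectomized against control rats Foxo3 was at 0.027 in limma at both pseudocounts and 0.0041 with the erythroid score. Pink1 and Gabarapl1 were at -0.048 and -0.024 with the muscle score. Map1lc3a, Map1lc3b, Gabarapl1 and Sqstm1 were at -0.17, -0.24, -0.16 and -0.0099 with the adipocyte score. For treated against ovariectomized rats Pink1 and Map1lc3a were at 0.034 and -0.057 with the muscle score, and Fundc1 and Pink1 at 0.14 and 0.020 with the erythroid score. For treated against control rats Pink1 was at -0.014 with the muscle score, Map1lc3a, Gabarapl1 and Sqstm1 at -0.088, -0.11 and -0.13 with the adipocyte score, and Map1lc3b at 0.011 with the erythroid score. The cause was not tested.

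Without single libraries, the ranges that cross 0 were, for ovariectomized against control rats, -0.061 to 0.042 for Foxo3, -0.085 to 0.11 for Map1lc3a, -0.020 to 0.19 for Map1lc3b and -0.012 to 0.095 for Gabarapl1. For treated against ovariectomized rats they were -0.082 to 0.12 for Gabarapl1, -0.27 to 0.039 for Pink1 and -0.18 to 0.063 for Fundc1. For treated against control rats they were -0.024 to 0.18 for Map1lc3a, -0.078 to 0.083 for Sqstm1, -0.086 to 0.16 for Fundc1 and -0.041 to 0.16 for Gabarapl1.

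The labels state no pairing by replicate number. Deviations from the group means correlated above 0.1 in 1 of 9 same-numbered pairs (-0.13 to 0.18), which cannot exclude a pairing with so few libraries. With the replicate number as a block edgeR called 0 genes in each comparison, and Bnip3 stood at 1.13, -0.20 and 0.93. The lowest count of a member in any library was 915, and the common biological coefficient of variation was 0.262.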

Other observations

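The machinery that builds autophagosomes and the lysosomes that receive them held no gene that passed edgeR's test. Of 23 genes of autophagosome formation tested, 11 had log2 fold changes above 0 and 12 below for ovariectomized against control rats, with a median of -0.00024. The largest departures by p were Atg12, the ubiquitin-like conjugation protein, at -0.13 ± 0.074 (SE), Wipi2, a phosphoinositide reader, at 0.15 ± 0.10 and Atg13, a subunit of the initiating kinase complex, at -0.10 ± 0.077. Of 14 lysosomal genes, 10 were below 0 with a median of -0.023, among them the protease gene Ctsb at -0.16 ± 0.13 and the galactosidase gene Gla at -0.088 ± 0.11, while Tfeb, the regulator of lysosomal genes, was at 0.10 ± 0.10. For treated against ovariectomized rats 9 of the 14 were above 0, with a median of 0.071. edgeR called 0 genes of both lists in each comparison.

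Of 8 hypoxia-sensing genes tested, 5 were above 0 for ovariectomized against control rats, with Hif1an, which hydroxylates HIF-1 alpha, at 0.22 ± 0.16 and the prolyl hydroxylase gene Egln3 at 0.22 ± 0.16. Among the FOXO factors, Foxo1 had 7.996, 9.79 and 8.13 FPKM in treated rats, 8.12, 9.96 and 12.1 FPKM in ovariectomized rats and 6.22, 8.81 and 7.81 FPKM in control rats, with a log2 fold change of 0.35 ± 0.18 for ovariectomized against control rats, and Foxo4 was at -0.15 ± 0.22.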
